A study of Mus musculus with 10 samples.

Results

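The cytosolic ribosomal protein genes were examined in RNA-seq libraries of mouse hearts, labelled as control or as Prdm16 knockout. Genes were taken by symbol: Rpl or Rps followed by a number, plus Rplp0, Rplp1, Rplp2 and Rpsa, without symbols holding "-ps" and without the Rps6k kinase genes. This gave 90 of 46786 genes at 3 months and 91 of 46977 at 12 months, 91 in all, because Rpl13 was not analysed at 3 months. They comprised 37 genes of the small subunit, 52 (3 months) or 53 (12 months) of the large subunit, and Rps19bp1, whose product binds a ribosomal protein and is not one itself. Of the 91, Rps3a2, Rps3a3, Rps4l, Rpl37rt and Rps12l1 are annotated as pseudogenes. Fau and Rack1 also encode parts of the ribosome, but their symbols lie outside the rule. The 4 groups were control hearts of 3 months (n = 3), Prdm16 knockout hearts of 3 months (n = 3), control hearts of 12 months (n = 2) and Prdm16 knockout hearts of 12 months (n = 2). The labels give no strain, sex, deleted exons or Cre driver, and do not say whether each library is a separate animal. The p-values then cover only how these libraries vary, which may be technical. Values were FPKM, fragment numbers scaled by transcript length and by library depth, in 1 table per age.

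A cytosolic ribosome is built from ribosomal RNA and one copy of most of these proteins, split between a small subunit that reads the messenger RNA and a large subunit that joins amino acids. Rplp0, Rplp1 and Rplp2 form the stalk of the large subunit, which recruits elongation factors. Vertebrate ribosomal protein messages usually start with a cytosine followed by a run of pyrimidines, the 5′ terminal oligopyrimidine tract, through which mTOR signalling controls their translation. Heart and skeletal muscle also express Rpl3l, a muscle paralog that can take the place of Rpl3. The family has left many processed pseudogenes in mammalian genomes, and reads from near-identical copies cannot always be placed.

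The 30 bases around the RefSeq start of a gene (15 on each side, build GRCm38.p6) are shown for 5 genes the results turn on, since the tract at the start is the family's shared sequence feature, and for Rpl18 as an example of a long run. Rpl29 is not among the genes with a window. The longest run of C and T in the window is in capitals, the first where runs tie.
Rpl18, chr7:45718056-45718085, plus strand: tgcgtctcgcaggccgCTCTTTCCCCgccc
Rpl34, chr3:130730384-130730413, minus strand: cgCCTTCCCTgacgtacttcctgtccggcg
Rplp0, chr5:115559452-115559481, plus strand: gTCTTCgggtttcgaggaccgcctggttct
Rps7, chr12:28635939-28635968, minus strand: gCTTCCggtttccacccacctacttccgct
Rps2, chr17:24720048-24720077, plus strand: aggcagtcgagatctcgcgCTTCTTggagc
Rpl3l, chr17:24727811-24727840, plus strand: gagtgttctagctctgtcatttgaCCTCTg
A start window was held for 67 of the 91 genes. Of these, 25 (37.3%) contained an uninterrupted run of at least 8 pyrimidines on the strand of the message, before or after the start. The same was true of 11.8% of the 27025 genes with a window. The median longest run was 6 bases in the ribosomal protein genes and 4 in all genes. The 15 bases before the RefSeq start are not part of the message that begins there. In Rpl34, Rplp0 and Rps7 the capitals lie wholly before the start, so a counted run need not be a tract at the start. A match describes letters and not a site.

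Copies matter for these measurements, so 2 pairs are shown from the annotated coding sequences of GENCODE M21, counted from the A of the start codon. Rps27 and its retrogene copy Rps27rt were identical over all 252 coding bases, of which bases 1 to 120 are printed once for both. Rplp0 and its processed copy Gm8730 (chr8:102864845-102865798) differed at 12 of 951 coding bases. Bases 383 to 502 hold 4 of these differences, in capitals: A390G, A393G, A447T and G502A, with the base of Rplp0 first.
Rps27 and Rps27rt: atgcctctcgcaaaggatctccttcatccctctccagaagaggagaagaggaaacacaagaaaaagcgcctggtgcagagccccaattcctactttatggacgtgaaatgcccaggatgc
Rplp0: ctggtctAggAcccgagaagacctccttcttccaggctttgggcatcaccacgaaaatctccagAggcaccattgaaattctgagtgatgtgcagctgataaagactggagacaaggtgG
Gm8730: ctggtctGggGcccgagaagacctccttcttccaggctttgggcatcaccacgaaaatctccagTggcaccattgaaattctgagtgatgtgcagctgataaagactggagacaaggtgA

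Prdm16 itself, the gene named in the labels, overlapped between labels at 3 months: 1.44, 2.23 and 1.61 FPKM in controls and 1.43, 0.760 and 2.03 in knockout-labelled libraries (limma, adjusted p = 0.602). At 12 months it was 6.31 and 5.05 against 4.02 and 3.58 FPKM (limma, adjusted p = 0.340). The part of the gene that was deleted is not given, so these levels do not check the labels, and groups are called control and knockout-labelled. Cardiomyocyte markers were present in every group, at summed levels of 30937 to 38574 against 39616 to 41614 FPKM at 3 months and 67325 to 67387 against 70285 to 73434 FPKM at 12 months. The labels also separated other genes. Of 8 red blood cell markers 5 could be tested at each age, and all 5 rose at 3 months and fell at 12 months. They summed to 818 to 1113 FPKM in controls and 2082 to 3111 in knockout-labelled libraries at 3 months, but to 10647 to 10783 and 1956 to 2157 at 12 months. The atrial markers summed to 716 to 6198 FPKM against 12323 to 28682 at 3 months and 6179 to 6342 against 13633 to 15893 at 12 months. Of the 7 atrial markers, 6 were higher and 1 lower at 3 months (median log2 difference 2.27). At 12 months 3 were higher and 4 lower (median −0.69), so the sum there does not stand for the list. Lymphocyte and neutrophil markers summed to 8.90 to 14.1 FPKM against 20.3 to 24.97 at 3 months and 31.7 to 33.1 against 8.20 to 27.7 at 12 months. Airway markers summed to 12.8 to 32.3 FPKM in controls of 3 months and 0.151 to 0.319 in knockout-labelled libraries, and skeletal muscle markers to 22.6 to 30.03 against 39.4 to 57.6. Macrophage markers ranged from 131 to 174 FPKM against 158 to 270 at 3 months. Of 5 adipocyte markers 2 were called as lower at 12 months, where the list's sum was 626 to 632 against 710 to 1366 FPKM. At 12 months Xist was 32.1 ± 1.45 FPKM in controls and 0.0575 ± 0.0475 in knockout-labelled libraries (SD, n = 2 each), with the Y-linked genes the other way round, so sex and genotype label cannot be told apart there. The part of these cell types in the results below was not tested. In bulk tissue, fewer cells of a type and less RNA per cell cannot be told apart. Depth was unknown at 3 months. At 12 months low values gave relative depths of 1.05 for the second control and 0.887 and 0.726 for the knockout-labelled libraries, against 1 for the first control.

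The listed levels of genes that build one machine in roughly equal numbers spread widely. At 3 months the median of the 90 genes' mean levels was 81.1 FPKM. The highest were Rplp1, a stalk protein (1149 FPKM), Rps15 of the small subunit head (932 FPKM) and Rpl41, the smallest protein of the set (840 FPKM). There were 41 genes at 100 FPKM or more and 21 under 10 FPKM, among them the small subunit genes Rps12 (0.170), Rps13 (1.52), Rps23 (3.54) and Rps6 (5.25). At 12 months the median was 62.2 FPKM, the highest were Rps15a (1208 FPKM), Rplp1 (944 FPKM) and Rps15 (714 FPKM), and 28 genes were under 10 FPKM. Rps16 averaged 0.308 and Rps6 0.351 FPKM there. Rpl10l, the autosomal copy of the X-linked Rpl10, and Rps12l1 were listed at 0 in every library of both ages. Across the 81 genes tested at both ages the mean levels had a Spearman correlation of 0.88, given as a description.

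Many of the low genes have copies that were listed at higher levels. A copy was an annotated gene outside the list that is a pseudogene, or has a "-ps" or Gm-number symbol. It also had to share at least 10 words of 50 bases with a member's transcripts. Members were never counted as copies, so Rps27rt and Rpl37rt were not added to Rps27 and Rpl37. At 3 months 774 distinct copies were measured, and they summed to 13703 to 17645 FPKM in controls and 19174 to 26990 in knockout-labelled libraries. The ribosomal protein genes themselves summed to 10958 to 13874 and 14595 to 20726 FPKM. The summed copies were above their gene for 42 of 90 genes at 3 months and 35 of 91 at 12 months, among them 16 of the 21 and 20 of the 28 genes under 10 FPKM. The rule also takes in genes that share only a short stretch. Rpl7l1 is among the 35, with 22 copies, though 92.5% of its words occur in no other gene. The small subunit gene Rps6, whose protein is phosphorylated downstream of mTOR, was at 3.12, 4.97 and 4.99 FPKM in controls of 3 months, and its 13 copies at 225, 180 and 205 FPKM. Rps27 was at 1.64, 3.48 and 3.66 FPKM and the retrogene Rps27rt, identical in coding sequence, at 509, 320 and 468 FPKM. The FPKM of a single member therefore describes a locus as the deposited tables assign it, and how reads shared with copies were placed was not tested.

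At 3 months nearly every ribosomal protein gene stood higher in the knockout-labelled hearts, by a modest amount, and few passed the test one by one. Of 85 genes tested (mean of at least 1 FPKM), 81 were higher and 4 lower. The median difference was 0.44 on the log2(FPKM + 1) scale, with quartiles of 0.33 and 0.57, against a median of 0.09 over all 12200 tested genes, of which 65% were higher. Called genes (limma, Benjamini-Hochberg adjusted p under 0.05 over all tested genes) were 4 of 85, 4.71%, where 0.746% of all tested genes were called. The 3 knockout-labelled libraries lay wholly above or below the 3 controls for 55 genes (64.7%, background 24.7%), above for 54 (63.5%, background 20.1%) and below for 1 (1.18%, background 4.6%). An unadjusted p under 0.05 was reached by 53 genes (62.4%, background 18.2%), but by 28 with median-of-ratios rescaling (32.9%, background 16.8%), 26 on TPM (30.6%, background 8.24%), 22 with quantile normalization (25.9%, background 17.0%) and 21 of 81 with coding genes only (25.9%, background 6.06%). Without control replicate 2 it was reached by 24 genes (28.2%, background 15.7%) and without knockout-labelled replicate 2 by 31 (36.5%, background 10.6%). The median was 0.43 over 35 small subunit genes, 34 of them higher, and 0.44 over 49 large subunit genes, 46 of them higher. The genes were chosen with earlier results known, so these counts and medians are descriptions of the list and not a test of it.

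The size of the difference depended on the library. Measured from the control mean, the median gene stood at 0.14, −0.11 and −0.02 log2 in the 3 controls and at 0.34, 0.76 and 0.24 in the knockout-labelled libraries. Knockout-labelled replicate 2 was the highest of its group for 79 of the 85 genes. It lay above all controls for 77 genes (90.6%, against 46.8% of all tested genes), replicate 1 for 68 (80.0%, against 30.3%) and replicate 3 for 58 (68.2%, against 34.1%). Without replicate 2, 81 genes were still higher and the median difference was 0.29, against 0.06 over all tested genes. In that fit 4 genes were called (4.71%, against 0.487% of all tested genes). As a share of all FPKM in a library, the tested genes made up 2.06%, 2.12% and 1.81% in controls and 2.47%, 2.88% and 2.33% in knockout-labelled libraries. All 3 of the latter shares lay above the controls.

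**Figure D1:**
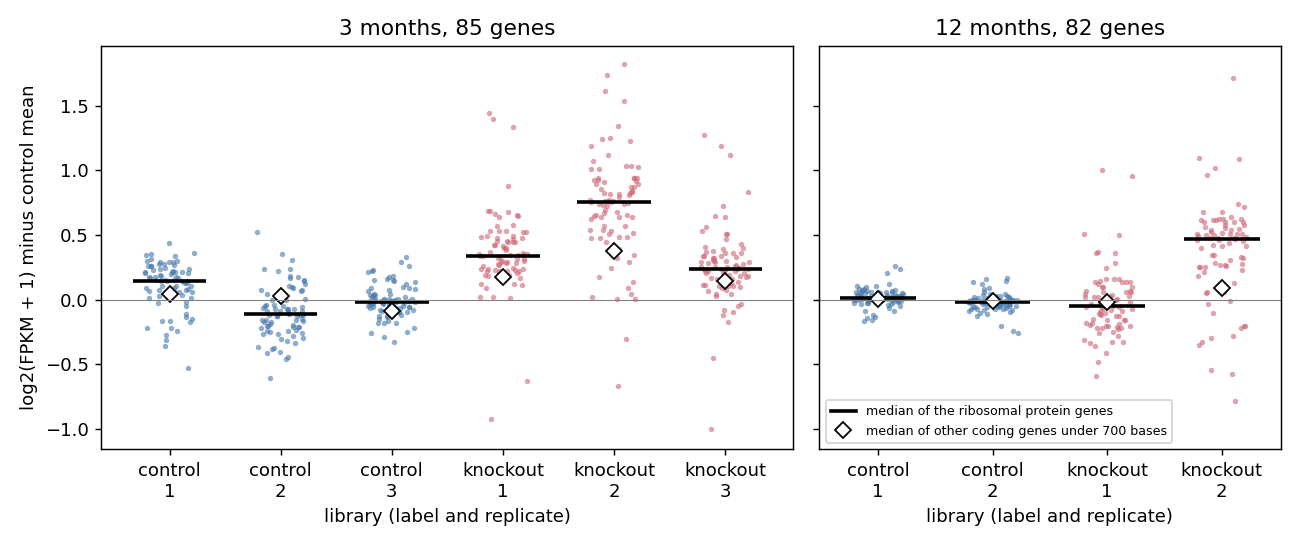
Each point is 1 ribosomal protein gene in 1 library, as log2(FPKM + 1) minus the control mean of that age, with controls in blue and knockout-labelled libraries in red, 85 genes at 3 months and 82 at 12 months. Black lines are medians over these genes and open diamonds are medians over other protein-coding genes under 700 bases. The knockout-labelled medians are 0.34, 0.76 and 0.24 at 3 months and −0.05 and 0.47 at 12 months.

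Other short transcripts were also listed higher in the knockout-labelled libraries. Among other protein-coding genes the median difference at 3 months was 0.24 for transcripts under 700 bases (766 genes), 0.21 from 700 to 1500 bases (2855 genes), 0.08 from 1500 to 3000 bases and −0.02 above that. Ribosomal protein genes in the first 2 of these classes had medians of 0.52 (40 genes) and 0.39 (37 genes). In knockout-labelled replicate 2 the other short genes stood at 0.37 and the short ribosomal protein genes at 0.82. The part of transcript length in the result was not tested beyond these values. Other complexes with short messages were also higher: 36 of 36 tested genes of respiratory complex I (median 0.41), 70 of 77 mitochondrial ribosomal protein genes (median 0.25) and 29 of 32 constitutive proteasome genes (median 0.22). None of these 3 lists had a gene called by limma, where 0.746% of all tested genes were called. In the same order, 20 of 36, 26 of 77 and 2 of 32 of their genes had an unadjusted p under 0.05, against 18.2% of all tested genes. Their genes of lowest p were Ndufa13 and Ndufa11 (limma, adjusted p = 0.120 and 0.135), Mrps10 and Mrpl28 (0.0859 and 0.119), and Psmb6 and Psmb4 (0.260 and 0.269).

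Among the genes called at 3 months, Rpl29 had the lowest adjusted p. Rpl29 encodes a large subunit protein at chr9:106429454-106431568 (GENCODE M21, GRCm38). It measured 79.9, 75.7 and 77.6 FPKM in controls and 197, 261 and 170 in knockout-labelled libraries. The controls were tightly grouped and all 3 knockout-labelled libraries lay far above them. The means were 77.7 ± 2.11 and 209 ± 46.8 FPKM (SD, n = 3 each), and the difference was 1.40 on the log2 scale (SE 0.17; limma, adjusted p = 0.00985). Its 48 copies summed to 50.4, 53.9 and 43.9 FPKM against 95.4, 90.2 and 90.1, and adding them to the gene gave 1.23 (SE 0.14; limma, adjusted p = 0.0104). Rpl29 was the only member called after copies were added, where 77 of 11916 genes (0.646%) were called. The call was lost without control replicate 2 (limma, adjusted p = 0.0923) or control replicate 3 (0.0560).

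Rpl34, a large subunit gene at chr3:130726831-130730398, had the largest difference of any member on the log2(FPKM + 1) scale with all libraries included. It measured 75.1, 46.6 and 64.3 FPKM in controls and 162, 217 and 148 in knockout-labelled libraries, which did not overlap. The means were 62.0 ± 14.4 and 176 ± 36.6 FPKM (SD, n = 3 each), a difference of 1.496 (SE 0.21; limma, adjusted p = 0.0158). Its largest copy, the processed pseudogene Rpl34-ps1 (chr6:71124610-71124963), was higher than the gene itself at 349, 197 and 275 FPKM against 261, 369 and 243, and its groups overlapped. Summed with all 7 copies, Rpl34 differed by 0.47 (SE 0.22; limma, adjusted p = 0.305). Without control replicate 2 or 3 the gene's own call was lost (limma, adjusted p = 0.0937 and 0.0846).

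Rps7, a small subunit gene at chr12:28630854-28635953, was called at a low level. It measured 3.67, 2.81 and 2.12 FPKM in controls and 9.39, 10.1 and 7.69 in knockout-labelled libraries. The means were 2.87 ± 0.776 and 9.05 ± 1.22 FPKM (SD, n = 3 each), a difference of 1.39 (SE 0.17; limma, adjusted p = 0.0104). Most of the FPKM of Rps7 and its copies lay at 1 copy: Gm6472, a transcribed pseudogene (chrX:152909505-152910155), measured 402, 307 and 355 FPKM against 371, 478 and 381, with overlapping groups. A smaller copy, Gm9493 (chr19:23619749-23620319), measured 10.9, 12.3 and 11.7 FPKM against 42.7, 51.0 and 43.03 and was itself called (1.88, SE 0.12; limma, adjusted p = 0.000468). With all 10 copies added Rps7 differed by 0.33 (SE 0.16; limma, adjusted p = 0.313). Its own call was lost without control replicate 2 or 3 (limma, adjusted p = 0.0923 and 0.05002).

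Rplp0, the stalk protein gene that is also a common reference gene (chr5:115559467-115563727), was the single member called as lower. It measured 323, 261 and 263 FPKM in controls and 148, 177 and 140 in knockout-labelled libraries, with no overlap. The means were 282 ± 35.2 and 155 ± 19.4 FPKM (SD, n = 3 each), a difference of −0.86 (SE 0.15; limma, adjusted p = 0.0449). Its 2 most abundant copies rose. Gm8730, which differs from it at 12 coding bases, measured 195, 168 and 170 FPKM against 377, 446 and 380 (1.168, SE 0.14; limma, adjusted p = 0.00985). Gm9625 (chr13:67810246-67811200) measured 85.0, 71.0 and 70.3 FPKM against 140, 155 and 137 (0.93, SE 0.13; limma, adjusted p = 0.0173). The gene and its 5 copies together differed by 0.39 (SE 0.15; limma, adjusted p = 0.222), so the direction turned and the call ended. Leaving out any 1 library other than knockout-labelled replicate 2 also ended the call, with limma adjusted p from 0.114 to 0.153.

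**Figure D2:**
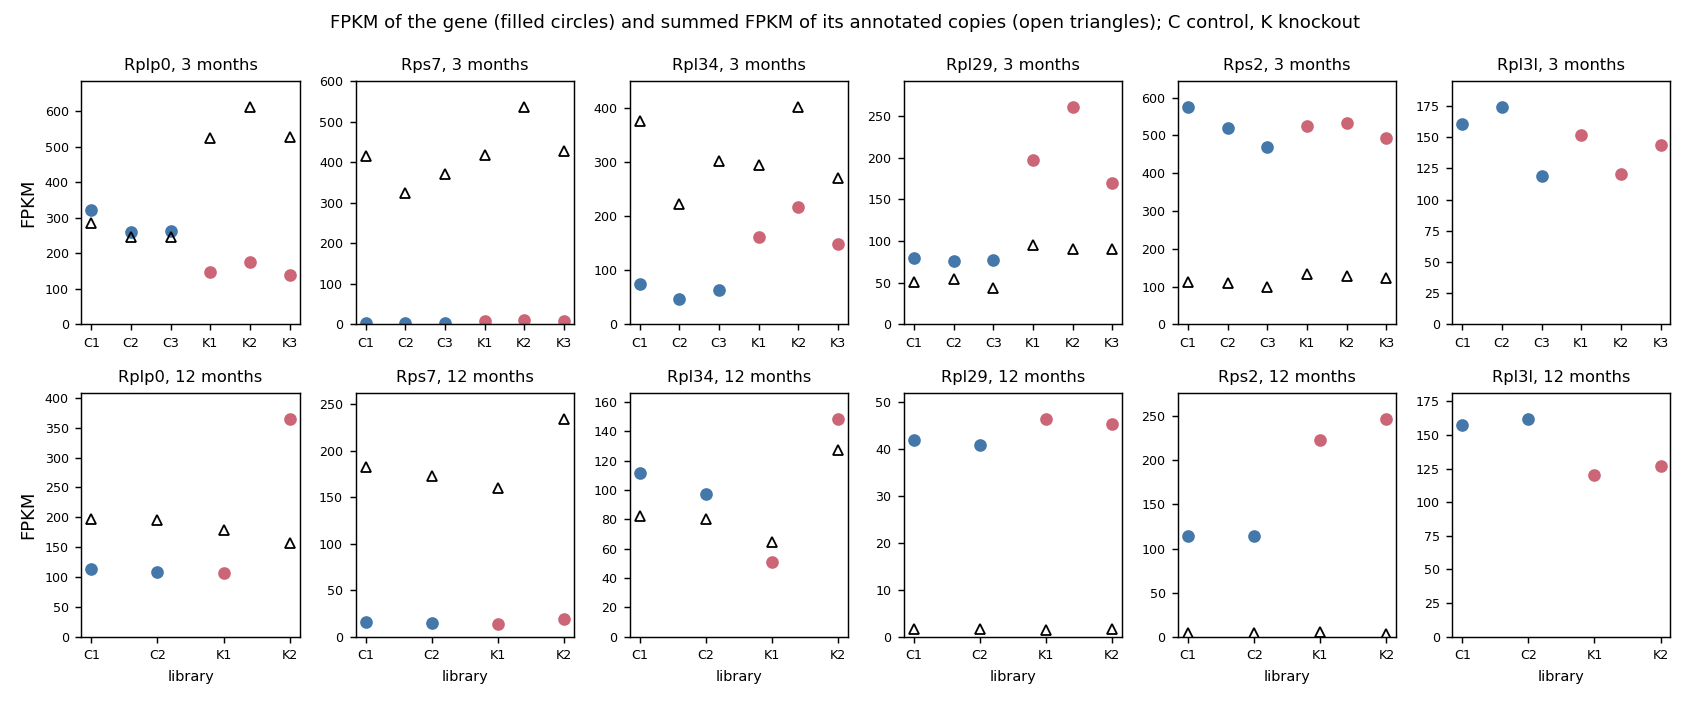
FPKM in each library (linear axis from 0) for 6 ribosomal protein genes, with filled circles for the gene (blue control, red knockout-labelled) and open triangles for the summed FPKM of its copies; Rpl3l has no copy. At 3 months Rplp0 is 323, 261 and 263 FPKM in controls and 148, 177 and 140 in knockout-labelled libraries while its copies go from 245 to 286 up to 526 to 611.

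With each gene summed with its copies, 88 genes could be tested at 3 months and 87 were higher, with a median of 0.47 and quartiles of 0.37 and 0.54. The knockout-labelled libraries lay above all controls for 65 (73.9%, where 19.5% of all 11916 genes tested this way did) and below for none (4.68% of all genes). Genes under 10 FPKM went from 21 to 5. Rpl37 and Rps27 stayed among them, and Rpl37rt and Rps27rt, being members, were not added to them. Rpl24, a large subunit gene at 9.03, 5.68 and 8.67 FPKM against 4.59, 8.22 and 5.32, went from −0.33 to 0.47 with its 4 copies. Of the 774 copies taken alone, 287 could be tested at 3 months, 267 were higher and the median was 0.42. There were 10 copies called as higher and 1 as lower, 3.83% of those tested, against 0.746% of all tested genes in the main fit. Summing with copies was chosen after the data were seen, and FPKM were added as they stood, with a copy counted for each gene that it resembles.

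**Figure D3:**
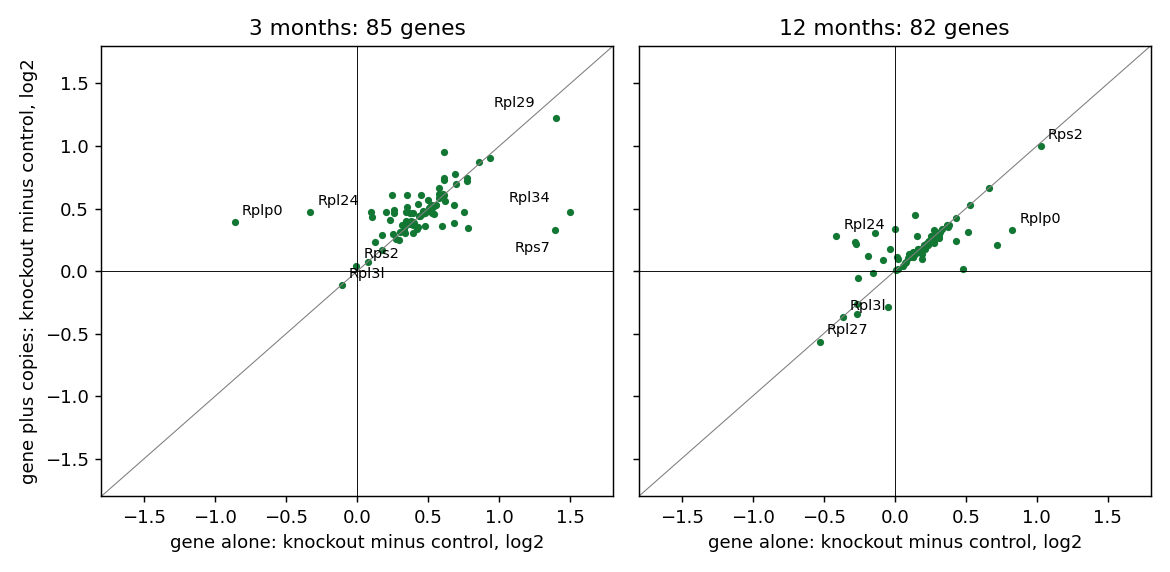
Log2(FPKM + 1) difference, knockout-labelled minus control, for each gene alone (horizontal) and summed with its copies (vertical); points on the grey diagonal do not change. At 3 months Rplp0 and Rpl24 cross from below 0 to above it (0.39 and 0.47), Rps7 and Rpl34 drop to 0.33 and 0.47, and Rpl29 stays at 1.23.

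The other stalk genes were higher at 3 months without passing the test. Rplp2 measured 69.8, 65.6 and 70.2 FPKM against 108, 141 and 88.8, and the groups did not overlap (0.69, SE 0.17; limma, adjusted p = 0.118). Rplp1 measured 1041, 872 and 955 FPKM against 1215, 1725 and 1082 (0.46, SE 0.19; limma, adjusted p = 0.257). Rpsa, a small subunit protein that is also known as the laminin receptor, measured 153, 135 and 133 FPKM against 163, 184 and 154 (0.25, SE 0.13; limma, adjusted p = 0.342). In this group only Rplp0 was lower, and only before its copies were added.

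Among the largest differences that did not pass, Rpl22l1, a paralog of Rpl22 that binds RNA outside the ribosome too, measured 32.7, 17.3 and 33.8 FPKM against 43.7, 84.2 and 38.5 (0.94, SE 0.33; limma, adjusted p = 0.198). Its knockout-labelled replicate 2 stood far above the other two. Rps21 measured 143, 95.0 and 149 FPKM against 233, 298 and 176 (0.86, SE 0.23; limma, adjusted p = 0.140), and Rpl28 5.53, 8.42 and 6.16 against 10.3, 13.5 and 12.5 (0.78, SE 0.16; limma, adjusted p = 0.0827). All 3 were without overlap between groups. Rps2 measured 575, 520 and 468 FPKM against 525, 534 and 492, a difference of −0.01 (SE 0.14), with overlapping groups.

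Rpl3l, the muscle paralog of Rpl3, was the only gene lower at 3 months both before and after copies were added. It has no copy, and none of its 50-base words occurred in another gene's transcripts. It measured 160, 174 and 119 FPKM in controls of 3 months and 152, 121 and 144 in knockout-labelled libraries, with full overlap (−0.11, SE 0.17; limma, adjusted p = 0.772). Rpl3 measured 15.3, 15.7 and 14.5 FPKM against 16.2, 16.7 and 15.97 (0.10, SE 0.11; limma, adjusted p = 0.653). With its 9 copies Rpl3 differed by 0.48 (SE 0.15; limma, adjusted p = 0.181). Per length, Rpl3l was listed above Rpl3 in every library, but with copies added Rpl3 was at 166 FPKM in knockout-labelled replicate 2, above Rpl3l at 121, so which is higher there depends on the copies.

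**Figure D4:**
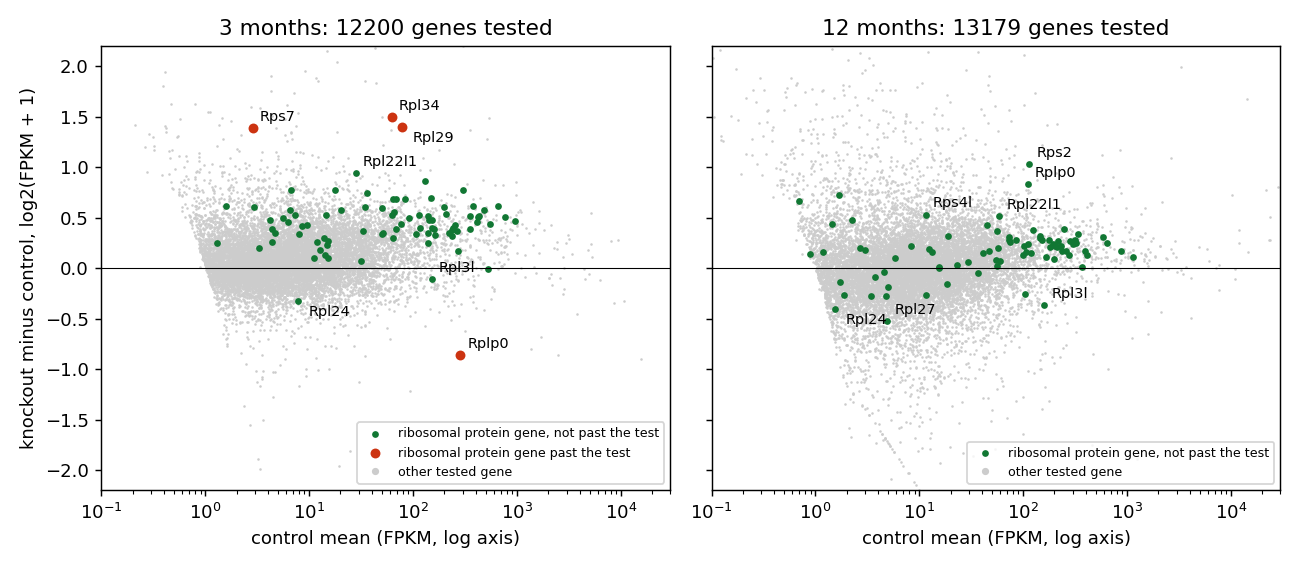
Difference between knockout-labelled and control libraries on the log2(FPKM + 1) scale against the control mean (log axis), with grey for other tested genes (those beyond the axes are not drawn), green for ribosomal protein genes and red for the 4 called at 3 months. At 3 months the green points lie above 0 apart from Rpl24, Rpl3l and Rps2; at 12 months none is called.

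Of the other paralog pairs, Rpl36al (157, 120 and 138 FPKM against 184, 244 and 170) was listed far above the X-linked Rpl36a (3.84, 4.68 and 4.78 against 6.41, 4.43 and 5.77), whose 7 copies summed to 276 to 388 FPKM in controls. Rps27l, a p53-responsive paralog of Rps27, measured 100, 54.1 and 73.9 FPKM against 87.2, 126 and 90.9, with overlap. Rpl22 measured 177, 139 and 137 FPKM against 172, 251 and 179, also with overlap. Rpl7 measured 264, 215 and 226 FPKM against 275, 326 and 277, and its paralog Rpl7l1 stood lower at 13.5, 12.4 and 12.6 against 13.95, 15.4 and 14.4. Rpl39l, known from the testis, stayed at 0.836 FPKM or below and was not tested. The X-linked Rps4x measured 261, 231 and 237 FPKM against 286, 402 and 284, its pseudogene-annotated relative Rps4l 32.5, 33.9 and 27.2 against 38.3, 31.6 and 29.0. The X-linked Rpl39 (79.0, 44.6 and 66.1 FPKM against 72.0, 142 and 69.7) and Rpl10 (11.7, 14.7 and 15.9 against 15.9, 14.03 and 16.3) overlapped between labels. None of these passed the test.

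Genes that work with the ribosome had smaller median differences. At 3 months 13 of 17 tested elongation factors and other genes with terminal oligopyrimidine messages were higher (median 0.26), led by Fau, which encodes a ubiquitin-like fusion of a small subunit protein (10.2 ± 1.26 against 16.4 ± 1.53 FPKM, SD, n = 3 each; 0.65, limma, adjusted p = 0.0713). The elongation factor gene Eef1a1 was at 516 ± 72.0 against 765 ± 128 FPKM (limma, adjusted p = 0.172). Of 30 initiation factor genes 26 were higher (median 0.11), of 40 ribosome biogenesis genes 25 (median 0.08), and of 21 regulators of ribosomal protein synthesis 10 (median −0.03). None of these genes was called by limma. In the order given, an unadjusted p under 0.05 was reached by 5 of 17, 5 of 30, 4 of 40 and 0 of 21, against 18.2% of all tested genes. The genes of lowest p were the initiation factor subunits Eif2b5 (limma, adjusted p = 0.185) and Eif3k (0.188), the small nucleolar RNA partners Nhp2 (0.188) and Rrp9 (0.206), the translation repressor Eif4ebp1 (0.302) and Mycn (0.316). Of these only Mycn was lower, at 1.64 ± 0.121 against 1.19 ± 0.245 FPKM (SD, n = 3 each). Medians of the last 2 lists were at or below that of all tested genes (0.09).

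At 12 months no ribosomal protein gene passed the test, and the 2 knockout-labelled libraries differed from each other. Limma called 0 of 82 tested (0%, background 0.395%), and 3 reached an unadjusted p under 0.05 (3.66%, background 13.6%): Rps2, Rpl27 and Rpl3l. The median difference was 0.18 with 68 genes higher, against 0.01 and 51.5% over 13179 tested genes, but on TPM it was −0.11 with 14 genes higher, where the median of all genes moved to −0.27. Groups were apart for 29 genes (35.4%, background 50.3%). The knockout-labelled libraries lay on either side of the controls: the median gene stood at −0.05 from the control mean in replicate 1 and 0.47 in replicate 2, against 0.02 and −0.02 in the controls. Replicate 1 lay below both controls for 42 genes (51.2%, against 37.6% of all tested genes) and replicate 2 above both for 67 (81.7%, against 44.4%). Other coding genes under 700 bases stood at −0.02 and 0.09 in these libraries.

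A comparison with 1 knockout-labelled library left out gave different answers. With replicate 2 alone the median was 0.47 and 53 of 82 genes were called (64.6%, against 33.4% of all genes), and with replicate 1 alone it was −0.05 and 2 of 81 were called (2.47%, against 4.98%). The lone library is assumed to vary like the controls there, which were close to each other.

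Rps2, a small subunit protein near the messenger RNA entry channel, was the largest difference at 12 months. It measured 114.8 and 114.7 FPKM in controls and 224 and 247 in knockout-labelled libraries. The means were 115 ± 0.0219 and 235 ± 16.2 FPKM (SD, n = 2 each), a difference of 1.03 (SE 0.11; limma, adjusted p = 0.0977), which did not pass. Both knockout-labelled libraries lay above both controls, which replicate 1 did for 27 of the 82 genes (32.9%, against 46.2% of all tested genes). Its 54 copies summed to only 3.41 to 4.80 FPKM, and the difference with them was 0.996 (SE 0.11; limma, adjusted p = 0.0983).

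Lower in both knockout-labelled libraries at 12 months was Rpl3l, at 158 and 162 FPKM against 120 and 127 (−0.37, SE 0.11; limma, adjusted p = 0.301). Rpl27 measured 5.35 and 4.49 FPKM against 3.22 and 2.97 (−0.53, SE 0.14; limma, adjusted p = 0.275). Rplp0 measured 113 and 108 FPKM against 106 and 364, so its difference of 0.83 (SE 0.62; limma, adjusted p = 0.584) came from 1 library. Its copies summed to 198 and 195 FPKM against 179 and 157, lowest in the library where Rplp0 was highest.

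The remaining members of largest difference at 12 months were mostly set by 1 library or lay at low levels. Rpl22l1 measured 61.5 and 55.8 FPKM against 59.3 and 120, and Rps4l 11.4 and 11.6 against 24.0 and 12.0. Rpl11, whose protein can bind Mdm2 outside the ribosome, measured 1.51 and 1.83 FPKM against 2.41 and 4.65, and Rps27 0.724 and 0.664 against 1.19 and 2.30. On the low side, Rpl24 measured 1.34 and 1.76 FPKM against 1.48 and 0.473, Rpl5 3.57 and 3.35 against 3.41 and 2.05, Rpl28 4.10 and 5.36 against 3.99 and 3.46, and Rps3a3 1.61 and 2.14 against 0.907 and 1.97. None passed the test. With copies added, 80 of 89 testable genes were higher at 12 months with a median of 0.20.

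At 12 months 14 of 17 elongation and terminal oligopyrimidine genes were higher (median 0.25), 23 of 30 initiation factor genes (0.15), 29 of 41 biogenesis genes (0.11) and 12 of 21 regulators (0.17). Limma called none of these genes. An unadjusted p under 0.05 was reached by 4 of 17, 3 of 30, 2 of 41 and 5 of 21 in that order, against 13.6% of all tested genes. The muscle elongation factor gene Eef1a2 was at 509 ± 1.97 against 695 ± 43.6 FPKM (SD, n = 2 each; limma, adjusted p = 0.267). The elongation factor gene Eef2 was at 443 ± 2.84 against 621 ± 75.1 FPKM (SD, n = 2 each; limma, adjusted p = 0.296). The initiation factors Eif5b (0.37) and Eif3j1 (0.39), the nucleolar protein gene Ncl (0.36) and Max (0.54), which encodes the partner of Myc proteins, were higher in log2 difference. The pseudouridine synthase gene Dkc1 (−0.31) and Mycn (−0.96) were lower. For these 6 genes limma gave adjusted p from 0.257 to 0.343.

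The difference between labels was itself compared between the ages by an interaction contrast over all 10 libraries. Of 81 genes tested at both ages, 65 were higher in knockout-labelled libraries at both. For 73 the signed difference was higher at 3 months, which counts Rpl3l, whose fall was larger at 12 months. The median change from 3 to 12 months was −0.26 over these genes and −0.08 over all 11580. The other 8 genes had the higher signed difference at 12 months. This count was 20 with median-of-ratios rescaling, 19 with quantile normalization and 5 on TPM. The interaction was called for 3 of 81, 3.70%, where 1.38% of 11580 genes were called, and 11 genes (13.6%, background 15.3%) reached an unadjusted p under 0.05. The called genes were Rps2 (1.03 log2 more at 12 months, SE 0.19; limma, adjusted p = 0.0247), Rpl29 (−1.25, SE 0.23; 0.0275) and Rps7 (−1.37, SE 0.28; 0.0427). Rpl29 at 12 months measured 41.8 and 40.8 FPKM against 46.2 and 45.3, a difference of 0.14, and Rps7 16.1 and 14.7 against 13.1 and 18.5. With copies added Rps2 (0.95) and Rpl29 (−1.09) were still called and Rps7 was not (−0.21; limma, adjusted p = 0.749). The calls rested on most single libraries. Without either 12-month control none of the 3 was called (limma, adjusted p from 0.154 to 0.222). Leaving out 3-month control replicate 1 or 2 or knockout-labelled replicate 1 or 3 ended the call of Rps2 (adjusted p from 0.0572 to 0.0762). Leaving out any 3-month control or knockout-labelled replicate 1 ended that of Rpl29 (0.0634 to 0.0735), and any 3-month library other than control replicate 1 ended that of Rps7 (0.0604 to 0.0964). Across the 81 genes the differences at the ages had a Spearman correlation of −0.02, a description across genes that are not independent replicates. Age cannot be told apart from library preparation, which differed between the ages per the labels.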

How the data were processed

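The authors deposited FPKM in a table for each age. Cufflinks 2.1.1, STAR 2.5.1b, TopHat2 2.1.0 and FastQC are named, without roles, per the submitters' processing notes. Hearts of 3 months gave strand-specific poly(A) libraries, and those of 12 months were prepared at a separate institute, per the labels' protocols. The 3-month table held 46855 rows, and 69 that repeated an identifier were summed. For reads placed at several loci, the handling is not stated in the sources used.

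The genes and gene lists were chosen with earlier results of these data known. Genes averaging at least 1 FPKM over an age's libraries were tested on log2(FPKM + 1), 12200 at 3 months and 13179 at 12 months. Fold changes on this scale understate changes of low genes. Testing used limma 3.58.1 (R 4.3.3), knockout minus control within an age, moderated with a trend, with Benjamini-Hochberg adjustment over all tested genes and a threshold of 0.05. Residual degrees of freedom were 4 and 2. Ages were compared by an interaction contrast. Levels were not tested across tables. Identifiers were matched without version to GENCODE M21 for 46297 and 46484 genes. Sequence sharing was counted in words of 50 bases between annotated transcripts. Start windows came from RefSeq, and 24 members had none.

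Named genes were those called, the 6 largest rises and falls per age, stalk genes, paralog pairs, X-linked genes, the 3 highest levels and the 2 members of lowest p of each other list (12-month complexes are not described). Rps6, Rps12, Rps13, Rps16, Rps23, Rpl18, the cell type markers and the copies were named after their values were seen. No low-value depth could be read at 3 months; FPKM hold no counting error, so precision rests on the number of libraries. Alternatives were the pseudocount, filter, scaling, trend, replicate block, coding genes only, each library left out and members summed with copies. The fit was tested on simulated data in which 200 genes were changed.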

Additional observations from a re-analysis of the deposited data

Results flagged for a closer look

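Rps2, Rpl29 and Rps7 differed between ages in the effect of the label, by the interaction contrast (limma, Benjamini-Hochberg adjusted over 11580 genes). Rps2 stood 1.03 log2 higher at 12 months than at 3 months in the knockout-minus-control difference (adjusted p = 0.0247), with both knockout-labelled libraries above both controls at 12 months and overlap at 3 months. Rpl29 stood at −1.25 (adjusted p = 0.0275) and Rps7 at −1.37 (adjusted p = 0.0427), each with 3 of 3 knockout-labelled libraries above the controls at 3 months. Leaving out either 12-month control ended all 3 calls, as did most 3-month libraries for each gene. Over the alternatives other than leaving out a library, adjusted p ran from 0.00450 to 0.236 for Rps2, 0.0128 to 0.112 for Rpl29 and 0.0146 to 0.749 for Rps7.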

How the results depend on the processing

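At 3 months the median difference of the ribosomal protein genes stayed above 0 in all alternatives run (0.20 with quantile normalization to 0.55), with 75 to 87 genes higher. The number called there was 0 without a filter, 2 with the replicate block, 1 with copies summed and 0 to 4 with 1 library left out. It was 5 of 80 with a mean of at least 5 FPKM, where 85 of 7071 genes were called, and 5 of 81 with coding genes only. Over all genes at 3 months the calls were 10 without a filter, 59 with median-of-ratios rescaling, 142 on TPM, 59 with quantile normalization, 29 with the replicate block, 167 with coding genes only and 22 to 81 with 1 library left out. At 12 months the median was −0.11 on TPM and −0.15 with coding genes only, with 14 and 11 genes higher, and 0.03 with 48 higher after quantile normalization; leaving out 1 library gave −0.0528 to 0.47, 33 to 72 genes higher and 0 to 53 called. All-gene calls at 12 months were 17 without a filter and 0 to 4409 with 1 library left out. Calls for a difference between ages were 0 with the replicate block and 0 to 7 with 1 library left out. Over all 11580 genes the block gave 55 such calls, against 160 in the main fit. Leaving out a 3-month library gave 83 to 121 over all genes and 0 to 2 among ribosomal protein genes. The highest count came without knockout-labelled replicate 1 of 12 months, where more of all genes were called too. Without a 12-month control fewer of all genes were called. Deviations from the group mean had correlations of −0.12, −0.46 and −0.14 between same-numbered libraries at 3 months and −0.01 at 12 months. With 2 or 3 libraries a group, centring ties these values to each other. They cannot show whether same-numbered libraries share a preparation, and the labels give nothing beyond the number.

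Only part of the genes was followed singly through the alternatives, so the list here is not complete. Of those followed, these changed sign, none past the threshold. Many other genes did so at 12 months on TPM, where 14 of 82 genes were higher, against 68 of 82 in the main fit. With copies summed, Rplp0 was 0.39, Rpl24 0.47 and Rps2 0.0444 at 3 months, and Rpl24 0.28, Rpl28 0.22 and Rpl5 0.24 at 12 months. With quantile normalization Rpl10 was −0.00891, Rpl3 −0.0336, Rps4l −0.099 and Rpsa −0.00948 at 3 months, and Rps7 −0.0329 at 12 months. Rpl3 was −0.00191 with median-of-ratios rescaling and −0.00413 with coding genes only. Rps4l was −0.0301 with median-of-ratios rescaling and −0.0278 on TPM. At 12 months on TPM Rpl29 was −0.17 and Rps7 −0.29, and with coding genes only −0.20 and −0.32. With 1 library left out, 3-month values ran from −0.27 to 0.0020 for Rpl3l, −0.0809 to 0.0667 for Rps2 and −0.0374 to 0.16 for Rps4l. The 12-month values ran from −1.01 to 0.50 for Rpl34, −0.0562 to 1.71 for Rplp0, −0.59 to 0.0537 for Rps3a3 and −0.22 to 0.25 for Rps7. The cause was not tested for these changes. With 2 libraries a group at 12 months and unknown depth at 3 months, differences below about the spread between libraries could not be resolved. Larger ones could also be missed at 12 months, where 0% of simulated 2-fold and 37.9% of simulated 4-fold changes were called.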
